A study of Mus musculus with 12 samples.

Results

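In 14181 autosomal CCCGGG sites of the mouse genome, 409 sites (2.88%) had a higher methylation level in every Tet1 null colonic adenoma than in any of 9 adenomas of other genotypes. They were chosen by that rule: at least 50 reads in all 12 adenomas, and the lowest of the 3 Tet1 null levels above the highest of the 9 others. The 14181 candidate sites were 8.6% of 164896 autosomal sites and came from 173449 listed sites. Since the levels themselves chose the sites, every difference between Tet1 null and other adenomas at these 409 sites is a description and carries no test.

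All adenomas came from C57BL/6J mice carrying Apc Min, an allele of the tumour suppressor Apc that leads to intestinal adenomas, and mice were 150 to 160 days old. The 4 groups of 3 adenomas were control (Tet1 wt Tdg wt), Tet1 null (Tet1-/-, Tdg wt), Tdg heterozygous (Tet1 wt, TdgN151A/+) and double heterozygous (Tet1+/-, TdgN151A/+). Whether a group's adenomas came from separate mice is not stated in the labels. By Y-chromosome reads the control, Tet1 null and Tdg heterozygous groups each held both sexes, so each came from more than 1 animal. In those groups adenomas of the same sex may still share an animal. The double heterozygous adenomas were all male, so their spread may be that of 1 animal. Whole adenomas were used, so levels are averages over tumour and other cells, and a change in the mix of cells and a change within cells cannot be told apart. The loss of Tet1 was taken from the labels.

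DNA methylation was read by digital restriction enzyme analysis of methylation. The enzyme SmaI cuts CCCGGG only where its CpG is unmethylated, and XmaI then cuts what is left, so each read carries the state of the site at its end. Tet1 encodes a dioxygenase that oxidises 5-methylcytosine and binds mostly at CpG-rich, weakly methylated DNA such as promoters. Tdg encodes the glycosylase that removes the oxidised bases, after which repair restores an unmethylated cytosine. In intestinal tumours, CpG-rich regions that are unmethylated in normal tissue are known to gain methylation.

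Of the 409 sites, 21 (5.13%) lay in a RefSeq promoter window of 300 bases, from 250 before to 50 after a gene's start, against 9.99% of the candidates. A site was tied to a promoter by the pattern of distances to 16 neighbouring promoter CCCGGG sites, since the sites are placed on mm9 and the promoters on GRCm38.p6. The pattern gave a place to 4394 of 4788 autosomal promoter CCCGGG sites (91.8%), and the other sites were assigned to no gene. The 250 bases before the start are shown for the 5 promoters that held the largest gaps among genes with a known or Riken symbol, because they show where in the promoter the site lay and how dense the CpGs around it were. The gap is the lowest Tet1 null level minus the highest level of the other 9 adenomas, in percentage points. Capitals mark the CCCGGG that was measured, each sequence is RefSeq GRCm38.p6 read 5′ to 3′ along the gene, and CCCGGG reads the same on both strands.
Gucy1a1: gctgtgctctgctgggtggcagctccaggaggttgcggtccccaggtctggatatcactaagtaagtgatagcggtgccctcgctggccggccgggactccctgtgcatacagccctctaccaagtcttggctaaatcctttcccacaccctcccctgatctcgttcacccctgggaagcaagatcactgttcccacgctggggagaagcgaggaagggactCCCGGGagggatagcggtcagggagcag
D130017N08Rik: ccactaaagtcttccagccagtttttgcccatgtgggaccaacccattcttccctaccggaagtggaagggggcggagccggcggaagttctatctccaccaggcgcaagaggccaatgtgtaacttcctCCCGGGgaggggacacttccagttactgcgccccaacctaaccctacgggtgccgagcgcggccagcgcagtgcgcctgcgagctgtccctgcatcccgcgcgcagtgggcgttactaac
Tomm20l: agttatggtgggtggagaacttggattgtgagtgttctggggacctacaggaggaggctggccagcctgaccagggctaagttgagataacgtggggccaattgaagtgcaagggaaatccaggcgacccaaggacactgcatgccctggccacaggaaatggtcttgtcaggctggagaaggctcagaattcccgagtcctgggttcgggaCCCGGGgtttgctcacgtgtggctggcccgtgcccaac
Slc13a3: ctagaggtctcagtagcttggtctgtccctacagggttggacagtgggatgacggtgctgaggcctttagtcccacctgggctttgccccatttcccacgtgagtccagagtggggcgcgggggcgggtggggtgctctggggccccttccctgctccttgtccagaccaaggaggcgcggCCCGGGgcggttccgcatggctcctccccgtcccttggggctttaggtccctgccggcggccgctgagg
Chd5: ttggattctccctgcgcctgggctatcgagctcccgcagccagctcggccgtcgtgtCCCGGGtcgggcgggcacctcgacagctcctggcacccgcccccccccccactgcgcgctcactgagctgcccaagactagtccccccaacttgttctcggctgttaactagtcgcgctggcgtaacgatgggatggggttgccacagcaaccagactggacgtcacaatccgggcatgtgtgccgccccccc
These stretches lie at chr3:82145074-82145323 (minus strand), chr5:143758104-143758353 (plus), chr12:71111178-71111427 (plus), chr2:165473198-165473447 (minus) and chr4:152338401-152338650 (plus) of GRCm38.p6. They hold 10, 18, 7, 14 and 21 CpGs in that order, and 1 CCCGGG each. The measured site began 28 bases before the start of Gucy1a1, 120 before D130017N08Rik, 38 before Tomm20l, 69 before Slc13a3 and 193 before Chd5.

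Gucy1a1 encodes the alpha subunit of soluble guanylate cyclase, the receptor for nitric oxide. Its site (mm9 chr3:81949021) had levels of 32.65%, 21.91% and 28.44% in Tet1 null adenomas 1 to 3, against 1.5%, 3.01% and 1.81% in the controls. The Tdg heterozygous adenomas had 2.29%, 2.71% and 3.28% and the double heterozygous adenomas 1.79%, 3.77% and 2.41%. All 9 other adenomas were thus near the bottom of the scale, with no overlap, and the means were 27.7% ± 5.41 (SD, n = 3) in Tet1 null adenomas and 2.51% over the other 9.

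The D130017N08Rik site (mm9 chr5:144519106) stood higher and varied more, at 69.42%, 63.5% and 34.6% in Tet1 null adenomas 1 to 3. The other 9 adenomas ranged from 2.5% to 23.8% there, with control 1 highest. Its promoter was matched by 6 of 16 neighbouring distances, the fewest of any promoter with such a site, so its gene name is the least firm.

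Lower levels were seen at the promoter of Slc13a3, a sodium-coupled dicarboxylate transporter, where Tet1 null adenomas had 3.9%, 6.57% and 5.06%. The other adenomas there ranged from 0.12% to 1.84%, and the highest of them was double heterozygous 3, the shallowest library. Chd5, a chromatin remodeller and tumour suppressor, had 6.85%, 10.08% and 5.88% in Tet1 null adenomas, against 0.61% to 4.28% in the others. Tomm20l, a relative of a mitochondrial import receptor, had 8.16%, 8.58% and 7.76% against 0.84% to 5.33%. In both of these promoters double heterozygous 1 came closest to the Tet1 null adenomas.

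The remaining promoter sites were mostly at levels of a few percent. Pou2f2, which encodes the B-cell transcription factor Oct-2, had 2.62%, 2.94% and 2.38% in the Tet1 null adenomas, and 8 of the 9 others were at 0. Chst5, a carbohydrate sulfotransferase, had 3.23%, 7.6% and 5.02% against 0 to 1.91%. Ppig, a cyclophilin, had 1.04%, 5.41% and 8.37% against 0 to 0.13%, so its Tet1 null adenomas differed from each other far more than from the rest at the nearest point. Rap1gap, an inactivator of the small GTPase Rap1, held 2 of the sites 247 bases apart. The first had a mean of 33.3% ± 15.8 (SD, n = 3) in Tet1 null adenomas against 11.5% over the others, and the second 1.84% ± 0.59 (SD, n = 3) against 0.03%.

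The other gene names were Gm51960, Lad1, Erich2, Cartpt, Frmd4b, Gstm5, Rasgef1c, Lhx3, Ppm1j, Tcp11 and the head-to-head pair Sv2c and Gm29543, whose promoters share 1 site. Except at Gm51960 (61.9% against 34.9%), their gaps were no larger than 0.24 points. Lhx3, a LIM homeobox gene of the pituitary, had 0.78%, 0.77% and 0.87% against 0 to 0.75%.

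Over all promoters, 21 of 1417 candidate sites were among the 409. By gene group, none of the 4 candidate sites in promoters of Hox genes was among the 409, nor was the single protocadherin site. Among other homeobox families 2 of 13 candidate sites were, those of Lhx3, with a gap of 0.02 points, and Pou2f2. The list of family names for that group was written after the 409 sites were known, so its count is no evidence on the group. Promoters of the Tet, Tdg and Dnmt genes, which write and erase methylation, held 5 candidate sites in 2 genes and none of the 409. Wnt antagonists, which restrain the pathway that Apc loss switches on, had no candidate site in a promoter.

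Promoter candidates held the sites at a lower share than other candidates: 21 of 1417 (1.48%) against 388 of 12764 (3.04%). The same order held among sites below 5% in the other adenomas, at 17 of 1354 (1.26%) against 256 of 7260 (3.53%). It was the opposite at 5 to 20%, with 3 of 31 (9.68%) against 7.22%, and at 20 to 80%, with 1 of 25 (4.0%) against 1.79%, on few promoter sites. The 23 promoter windows with such a site had a median of 21 CpGs and a CpG observed-to-expected ratio of 0.69, and the 1490 other windows with a candidate had 29 CpGs and 0.85. Their median GC contents were 69.3% and 69.0%. So the medians differed in CpG density at nearly the same GC content, while the ranges overlapped (7 to 37 CpGs against 2 to 63). The 23 windows belonged to 21 genes and some shared a site, and the difference was not tested.

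Sorted by the median level in the 9 other adenomas, 273 of the 409 sites were below 5%, 78 were at 5 to 20%, 47 at 20 to 80% and 11 at 80% or above. As a share of the candidates of each class these were 3.17% of 8614, 7.29% of 1070, 1.81% of 2592 and 0.577% of 1905. The share was thus highest among sites that were weakly but measurably methylated, and lowest among highly methylated sites, where levels are near the top of the scale. Below 5% many levels were at the bottom of the scale. There the median over the remaining candidates was 0 in every adenoma but Tet1 null 2 (0.06%). A site at 0 in all adenomas cannot be chosen, and 1829 candidates of all classes had a gap of exactly 0. The part of this floor in the comparisons within that class was not tested.

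**Figure D1:**
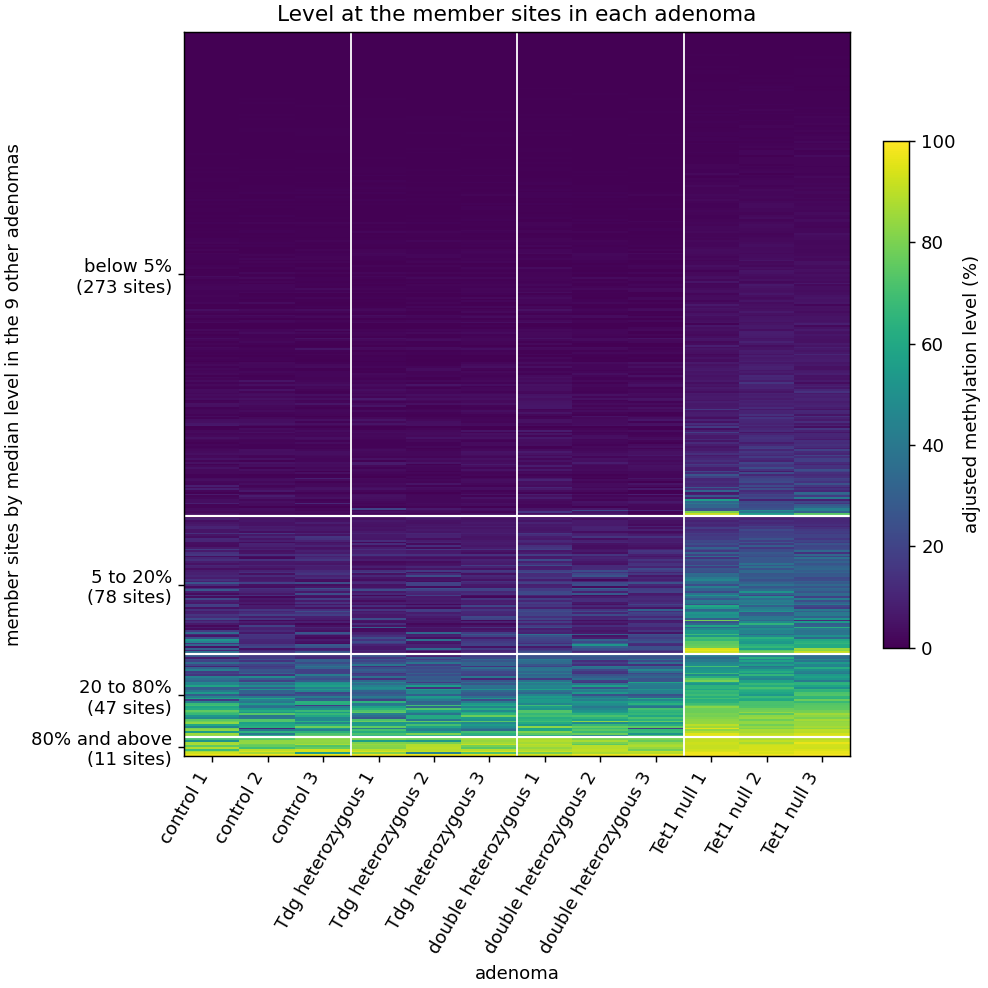
Adjusted methylation level (colour, 0 to 100%) at the 409 sites (rows, sorted by the median of the 9 other adenomas) in each of the 12 adenomas (columns), with white lines between genotypes and between the classes of 273, 78, 47 and 11 sites. The Tet1 null columns are lighter in every row because the sites were chosen so, by little in most rows below 5% and by far more in many rows of the 2 middle classes.

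Most gaps were small. The median gap was 0.89 points (quartiles 0.2 and 3.47), and the largest was 54.96 points. In the class below 5% the median gap was 0.48 points, at 5 to 20% it was 4.87, at 20 to 80% it was 2.62 and at 80% or above 0.6. A gap of at least 1 point was found at 199 sites, of at least 5 points at 76, of at least 10 points at 26 and of at least 20 points at 10. All of those with 20 points or more had a median below 20% in the other adenomas: 8 of them at 5 to 20% and 2 below 5%.

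The difference of means was larger than the gap, with a median of 5.41 points (quartiles 1.5 and 16.7). It reached at least 10 points at 149 sites, 20 points at 84 and 50 points at 6. By class its median was 2.3, 21.1, 22.7 and 8.78 points from the lowest to the highest class. At 62 sites the Tet1 null mean itself was below 1%, and at 64 it was 50% or more. All 9 other adenomas were at 0 at 5 sites.

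Counting error bears on these small gaps. The 95% exact binomial (Clopper-Pearson) interval of the lowest Tet1 null level lay above that of the highest other level at 77 of the 409 sites (18.8%). At the rest these intervals overlapped. Intervals cover counting error only and were built from the raw read counts, while the gap uses adjusted levels. The reads carry no stated molecular identifiers, so duplicate reads may be counted as independent and the intervals may be too narrow. The smallest gap was 0.01 points, shared by several sites. At chr19:41281554 the lowest Tet1 null level was 0.44% and the highest other level 0.43%, and at chr19:60966885, another such site, these were 0.28% and 0.27%. Just outside the threshold, with a gap of -0.01, lay for example chr2:51790442 with 0.08% against 0.09%.

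Per adenoma, the median level over the 409 sites was 6.26%, 8.66% and 7.76% in Tet1 null adenomas 1 to 3. It was 1.71%, 1.8% and 1.59% in the controls, 1.63%, 1.57% and 1.8% in the Tdg heterozygous adenomas and 2.63%, 1.79% and 1.96% in the double heterozygous adenomas. Tet1 null 1 was the lowest of its group, and double heterozygous 1 the highest of the other 9. The mean over the sites was 20.7% ± 0.316 (SD, n = 3) in Tet1 null adenomas, 9.88% ± 0.718 in controls, 9.46% ± 0.142 with Tdg heterozygosity and 11.01% ± 0.688 with both genes heterozygous.

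Tet1 null 1 had the lowest level of its group at 214 of the 409 sites, Tet1 null 2 at 96 and Tet1 null 3 at 99, so it most often set the gap. Its share was larger below 5% (170 of 273) than at 20 to 80%, where Tet1 null 2 was lowest at 21 of 47 sites. On the other side, double heterozygous 1 was highest at 122 sites, control 1 at 52 and double heterozygous 3 at 48, and the remaining 6 adenomas at 22 to 37 each.

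**Figure D2:**
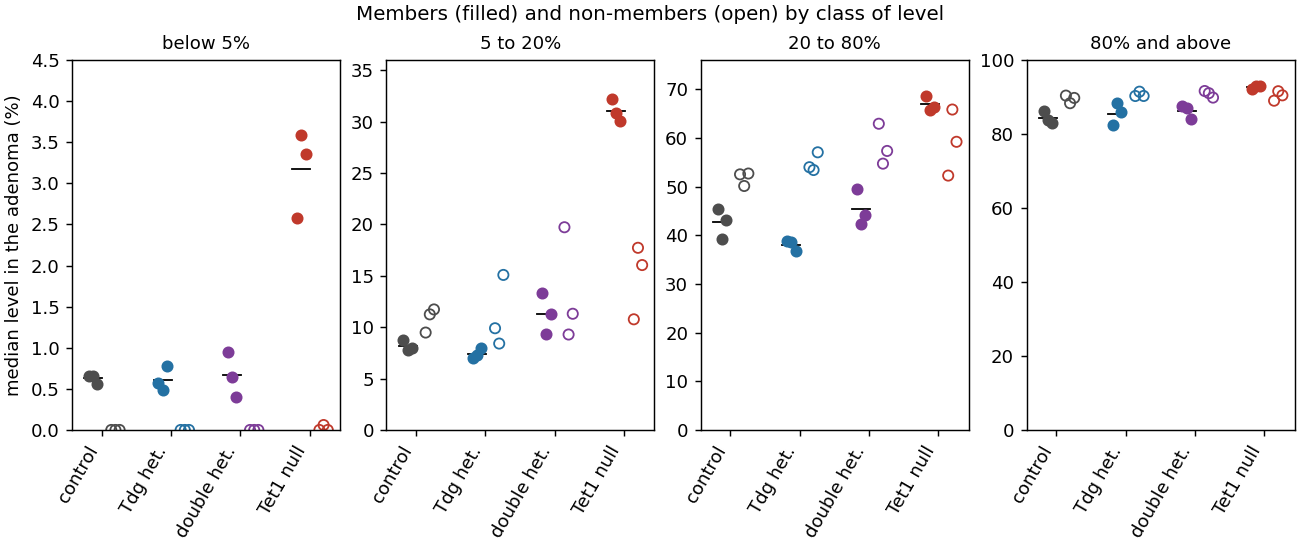
Median level (%, own scale in each panel) per adenoma over the chosen sites (filled points, with the group mean as a bar) and over the remaining candidates (open points), in 4 classes of level. Over the remaining candidates at 20 to 80%, Tet1 null 1 (52.3%) lies within the range of the other genotypes, Tet1 null 2 (65.8%) lies above it and double heterozygous 1 reaches 62.9%.

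Levels over candidates outside the 409 sites also differed among adenomas. Over 2580 such sites with a median of 20 to 80%, the mean level was 49.95%, 61.79% and 56.48% in Tet1 null adenomas 1 to 3, and 48.7% to 59.39% in the other 9, with double heterozygous 1 highest. Tet1 null 2 and 3 and double heterozygous 1 thus had high levels at intermediate sites in general, and the part of this in the choice of the 409 sites was not tested. Total reads ran from 2349576 (double heterozygous 3) to 18865833, and the median depth at candidates from 111 to 966 reads. The spiked unmethylated standard read as methylated at 0.147% to 1.286% in Tet1 null adenomas and 0.12% to 1.655% in the others, ranges that overlap. By Y-chromosome reads, Tet1 null 1 and 2 were male and Tet1 null 3 female, and the other 9 adenomas held both sexes.

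The same rule was applied to the other genotypes. Controls were highest at 9 sites (0.0635%), Tdg heterozygous adenomas at 24 (0.169%) and double heterozygous adenomas at 34 (0.24%). Tet1 null adenomas were lowest at 9 sites (0.0635%), against 103 (0.726%) for controls, 22 (0.155%) for the Tdg heterozygous group and 28 (0.197%) for the double heterozygous group. With a gap of at least 5 points, Tet1 null adenomas had 76 sites and the other genotypes 0 each.

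The rule was also applied to all 220 sets of 3 adenomas that can be drawn from the 12. Over the 219 other sets the median count was 30 sites, with a range of 3 to 722, and 2 sets had more than 409. Both mixed genotypes and both held Tet1 null 2 and double heterozygous 1: with Tdg heterozygous 3 the count was 722, and with Tet1 null 3 it was 577. Larger gaps also left the first of these sets ahead of the Tet1 null set. It had 161 sites against 76 with a gap of at least 5 points, and 37 against 26 with at least 10 points. At the 9912 candidates (69.9%) where the 3 highest adenomas were distinct from the rest, Tet1 null 2 was among them at 52.1%, double heterozygous 1 at 39.9%, Tet1 null 3 at 37.4% and Tet1 null 1 at 20.1%. The lowest share was that of control 2, at 10.9%. All 3 highest were Tet1 null adenomas at 4.13% of these sites.

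**Figure D3:**
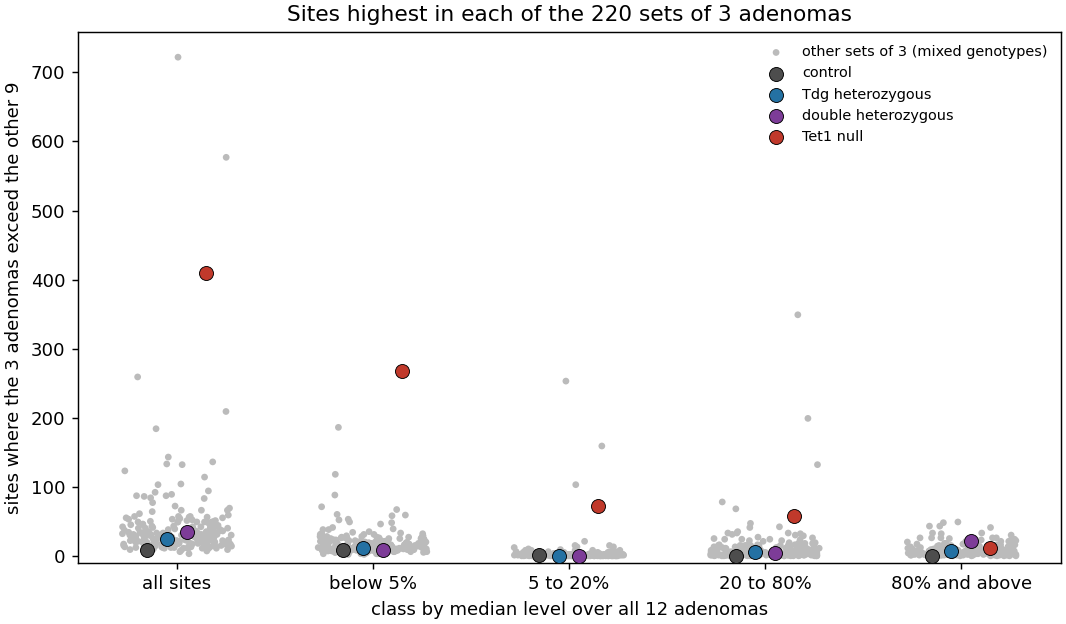
Number of sites where a set of 3 adenomas exceeded the other 9 (y axis) for all candidates and by class of the median over all 12 adenomas (x axis), with each point a set of 3 and the 4 genotypes in colour. The Tet1 null set has 409 sites in all, with 2 sets above it, 268 below 5%, with none above it, and 58 at 20 to 80%, with 5 above it, while the other 3 genotypes stay at 34 or fewer.

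The place of the Tet1 null set depended on the level of the sites, here sorted by the median of all 12 adenomas so that no set is favoured. Below 5% it had 268 sites and the next set, Tet1 null 2 and 3 with double heterozygous 1, had 186. With a gap of at least 1 point these counts were 90 and 26. At 5 to 20% the Tet1 null set had 72 sites and 3 other sets had more, up to 253. At 20 to 80% it had 58 and 5 other sets had more, up to 349, and at 80% or above it had 11 and 51 sets had more, up to 49. Non-overlap of the 3 Tet1 null adenomas was thus the most frequent of any set at sites below 5% and not in the higher classes.

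The 10 places with the largest gaps held 14 of the 409 sites, counting sites within 500 bp as 1 place. The largest gap was on chromosome 16, at chr16:35660144 of mm9. Tet1 null adenomas 1 to 3 had 96.16%, 74.52% and 83.14% there, controls 10.32%, 11.54% and 11.62%, and Tdg heterozygous adenomas 10.11%, 10.67% and 10.19%. The double heterozygous adenomas had 18.67%, 19.56% and 17.31%, all above the controls and the Tdg heterozygous adenomas and far below the Tet1 null adenomas. The second site, 360 bp on at chr16:35660504, had 91.23%, 54.69% and 74.1% in Tet1 null adenomas against 0.79% to 5.89% in the other 9, among which the genotypes overlapped.

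The second place also held a pair, with unlike members. At chr18:43741702 the Tet1 null adenomas had 93.25%, 78.69% and 91.37%, and the others 3.21% to 37.05% with control 1 highest. At chr18:43742045, 343 bp on, the Tet1 null adenomas had 83.73%, 83.87% and 84.59%. Control 1 had 82.94% there and the 8 remaining adenomas 45.56% to 61.71%, so 1 control alone reduced the gap to 0.79 points.

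On chromosome 16, 2 further sites lay just beyond 500 bp from each other and counted as separate places. Levels at chr16:91140483 were 78.03%, 66.06% and 61.71% in Tet1 null adenomas and 4.75% to 29.88% in the others. Those at chr16:91139958 were 46.22%, 48.44% and 40.42%, against 2.79% to 10.08%. The groups overlapped at neither site, and the other adenomas were lower and closer together at the second of these.

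Tet1 null levels were close to each other at chr9:107281178, with 52.57%, 47.98% and 50.37%, while the other 9 adenomas ranged from 4.34% to 25.03%. They were far apart at chr3:118138315, with 94.83%, 56.34% and 85.1% against 4.25% to 34%. Its neighbour 377 bp before, chr3:118137938, had 9.78%, 20.27% and 12.33% against 2.72% to 7.59%, so Tet1 null 2 was lowest at the first site and highest at the second.

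At chr11:113927258 the other 9 adenomas were all under 2% (0.43% to 1.96%), and the Tet1 null adenomas had 33.2%, 23.71% and 32.58%. Its neighbour chr11:113927578, 320 bp on, had 1.97%, 2.92% and 4.36% against 0.12% to 0.52%. The order of the Tet1 null adenomas again differed between the neighbours. The remaining places were chr8:10154587 (74.27%, 52.81% and 65.85% against 3.21% to 31.19%), chr3:107261130 (53.66%, 44.5% and 37.97% against 3.42% to 17.37%) and the Gucy1a1 promoter.

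**Figure D4:**
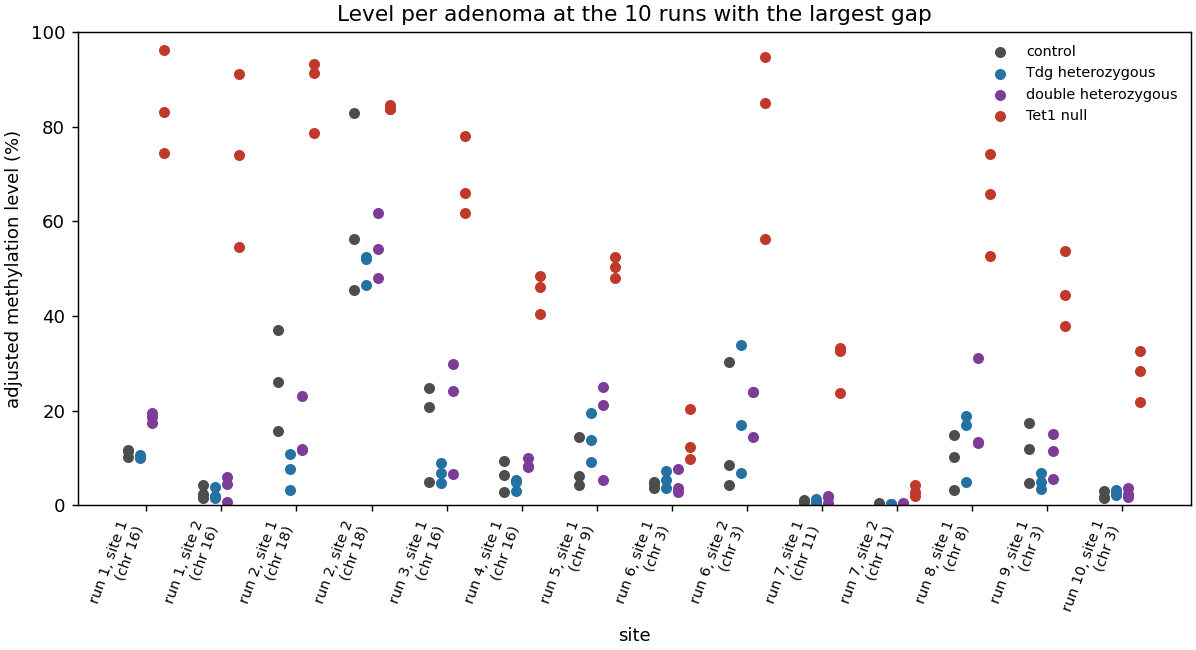
Adjusted methylation level (%, y axis) of each adenoma at the 14 sites of the 10 places with the largest gap (x axis, numbered by gap), with 1 point per adenoma and genotypes in colour. The Tet1 null points lie above all others at each site, from a gap of 54.96 points at the first to 0.79 at the second site of run 2.

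In the higher classes the leading sites were further apart in level than in gap. At chr1:89417747 the Tet1 null adenomas had 67.11%, 61.96% and 64.51% and the other 9 had 31.22% to 44.96%. At chr11:94881342 they had 82.1%, 71.88% and 74.81% against 34.23% to 58.97%. Among sites at 80% or above the largest gap was 2.5 points, at chr15:87308069, where the Tet1 null adenomas had 90.97%, 90.79% and 91.15% and the others 51.23% to 88.29%. There the Tet1 null adenomas were nearly alike while the other 9 spread widely. The next, chr5:125205891, had 91.32%, 93.02% and 92.91% against 72.5% to 89.07%.

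Along the genome the 409 sites formed 348 runs when neighbours within 500 bp were joined: 290 single sites, 55 pairs and 3 runs of 3 sites. So 119 sites (29.1%) had another of the 409 within 500 bp, against 2.16% of the other candidates. Nearly all candidates have a partner to compare with, since 92.9% of the 409 and 89.8% of all candidates had another candidate within 500 bp. The 2 sites of a pair were always next to each other in the list of sites, at 147 to 482 bp (median 309). Reads start at cut sites, so neighbouring sites can bound the same restriction fragment, and the part of this in the clustering was not tested.

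Of the 55 pairs, 37 had both sites in the same class of level. The larger of the 2 differences of means was a median of 2.5 times the smaller, under 2 times in 20 pairs and over 10 times in 10. The median difference was 8.78 points at sites in runs and 4.94 at single sites.

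The 3 runs of 3 sites were chosen for mention after their values were seen. At chr14:109311177, 109311469 and 109311560 Tet1 null 1 had 80%, 78.65% and 55.46%. Tet1 null 2 had 39.0%, 33.67% and 9.0%, Tet1 null 3 had 31.32%, 12.36% and 8.64%, and the other 9 adenomas ranged from 0.98% to 15.87%. The Tet1 null adenomas kept their order at all 3 sites while differing widely. The other runs, chr3:97671110-97671889 and chr6:29477508-29478135, were at low levels, with means over their sites of 2.06% and 1.76% in Tet1 null adenomas and 0.42% and 0.24% in the others.

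By distance, the share of neighbouring candidates that were among the 409 was 24 of 86 (27.9%) at 101 to 250 bp, 98 of 340 (28.8%) at 251 to 500 bp and 24 of 140 (17.1%) beyond 500 and up to 1000 bp. It was 8 of 68 (11.8%) at 1001 to 2000 bp, 4 of 74 (5.41%) at 2001 to 5000 bp and 4 of 49 (8.16%) at 5001 to 10000 bp. Over the sites of all candidate pairs at the last 2 distances, 2.85% and 1.79% were among the 409. At 10001 to 50000 bp the share was 4 of 528 (0.76%), and at 50001 to 100000 bp 14 of 531 (2.64%), near the 2.88% over all candidates. The share was thus above that background in each bin up to 10000 bp, and the last 2 of these bins rest on 4 neighbours each, so the end of the range is not placed.

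**Figure D5:**
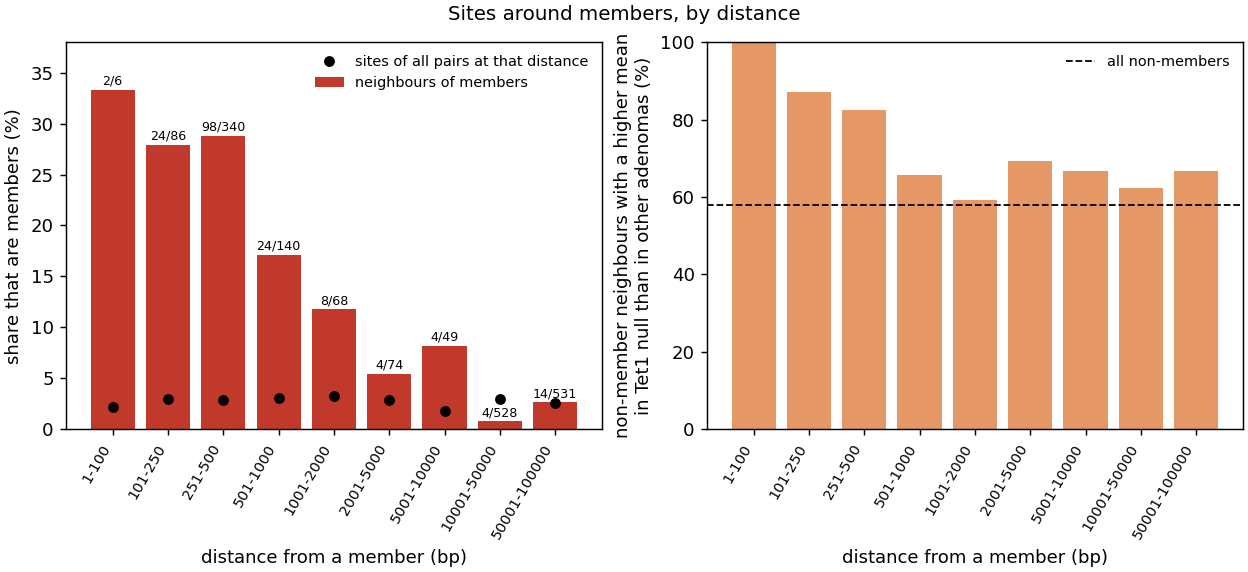
Left, the share (%) of candidates at each distance from a chosen site that were themselves chosen (bars, with counts), beside the share over the sites of all candidate pairs at that distance (dots). Right, the share of neighbours that were not chosen whose mean level was higher in Tet1 null than in the other adenomas (bars), beside the 57.8% of all candidates that were not chosen (dashed line).

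Neighbours that missed the rule leaned the same way. Of 298 such candidates within 500 bp, 249 (83.6%) had a higher mean in Tet1 null adenomas than in the other 9, against 57.8% of the 13772 candidates outside the 409. In 28.5% of them 2 of the 3 Tet1 null adenomas lay above all 9 others, against 7.12%. The median difference of means near a chosen site was 0.12 points below 5%, 8.92 at 5 to 20%, 10.99 at 20 to 80% and 1.6 at 80% or above. Over all candidates outside the 409 these medians were 0.01, 2.43, 2.71 and 0.15.

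Below 5%, the share of chosen sites varied with the number of CCCGGG sites around them. With 0 or 1 other CCCGGG within 500 bp, 169 of 4288 candidates of that class (3.94%) were among the 409, with 2 it was 65 of 2292 (2.84%) and with 3 or more 39 of 2034 (1.92%). At 5 to 20% the order was different, with 59 of 883 (6.68%), 17 of 135 (12.6%) and 2 of 52 (3.85%). Depth also moved with the share, which was 2.12% of candidates whose lowest depth was 50 to 99 reads, 3.4% at 100 to 199 and 3.56% at 200 or more. The part of depth in the choice was not tested.

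Every autosome held some of the sites, from 8 on chromosome 13 to 36 on chromosome 2. As a share of candidates, chromosome 6 was highest with 29 of 666 (4.35%), followed by chromosome 14 with 21 of 487 (4.31%), and chromosome 17 was lowest with 9 of 698 (1.29%).

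The rule treats the 9 other adenomas alike, but it used their highest level, so a site where any of them is high tended to be left out. Comparisons among these 9 at the 409 sites are therefore not independent of the choice, and a lack of calls there does not show that the genotypes are alike. Double heterozygous adenomas, which carry 1 Tet1 allele and also TdgN151A/+, were compared with the mean of controls and Tdg heterozygous adenomas. Controls lack TdgN151A, so this contrast cannot tell the loss of 1 Tet1 allele from part of any effect of the Tdg allele. The test was edgeR's quasi-likelihood test with Benjamini-Hochberg adjustment over 12978 sites. It called 1 site in all (0.00771%), and 0 of the 409. At an unadjusted p under 0.05 there were 29 of the 409 (7.09%, 27 of them higher) and 4.82% of all sites tested, and limma gave 0 calls, with 35 of the 409 (8.56%) and 6.06% of all sites at that level. All 3 double heterozygous adenomas were male, as were 1 of 3 controls and 1 of 3 Tdg heterozygous adenomas. With sex as a covariate, edgeR had 20 of the 409 (4.89%) and 5.02% of all sites at an unadjusted p under 0.05. The smallest adjusted p among the 409 (edgeR) was 0.11, at chr8:112701496, where double heterozygous adenomas had 13.1% ± 7.87 (SD, n = 3), controls 2.79% ± 1.08 and Tdg heterozygous adenomas 3.39% ± 1.06.

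The double heterozygous mean was the higher at 263 of the 409 sites (64.3%) and at 54.5% of all sites tested, with median differences of 0.142 and 0.022 points. In the fitted model 298 of the 409 had a positive coefficient. The count was 205 without double heterozygous 1, 313 without double heterozygous 2, 309 without double heterozygous 3 and 309 with sex as a covariate. The share of positive coefficients over all sites tested was not computed, so these counts have no background beside them. Among omissions of 1 adenoma, the count was lowest without double heterozygous 1, which was also high over intermediate sites in general. Among the chosen sites at 5 to 20%, all 3 double heterozygous adenomas had higher medians (13.32%, 9.31% and 11.27%) than any control or Tdg heterozygous adenoma (6.98% to 8.75%). In the other classes these medians overlapped, and the cause of the lean was not tested. Without double heterozygous 1, edgeR called 9 sites, 1 of them among the 409.

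Tdg heterozygous adenomas against controls gave 7 calls (0.0539%) over all sites by edgeR and 0 among the 409. At an unadjusted p under 0.05 there were 12 of the 409 (2.93%) against 3.95% of all sites, and limma gave 0 calls, with 5 of the 409 (1.22%) and 1.44% of all sites at that level. The Tdg heterozygous mean was the higher at 193 of the 409 sites (47.2%) and at 53.3% of all sites tested, with median differences of 0 and 0.023 points. With 3 adenomas a group, small differences at the 409 sites may be missed by either comparison.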

How the data were processed

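DNA of 12 adenomas, with methylation standards added, was digested by SmaI followed by XmaI, per the labels' protocols. The submitters' processing notes name Trim Galore and Bowtie2, each with its version not given in the sources used here, and the mm9 build. Per the file headers the build is mm9 as well, but a rat build appears in the text on extraction. The authors deposited counts of methylated and unmethylated reads per site, and a percent level that they adjusted for enzyme efficiency with the standards. A minimum of 100 reads is named in the labels, but shallower sites are listed too.

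The 409 sites, the gene groups and the comparisons were chosen with earlier results of these data known. Levels are the deposited adjusted percent, and X and Y sites were left out. Named sites were the 10 places with the largest gap, 2 per class of level, 3 on either side of the threshold, runs of 4 or more (none were found) and sites called by a test. The test on counts was that of edgeR 4.0.16 (R 4.3.3): all 12 adenomas in 1 fit, a depth coefficient per adenoma, a methylation coefficient per genotype, two-sided, threshold 0.05, with 1203 sites of a single state left out (common dispersion 0.106). The code was tested on simulated data. Alternatives were a larger gap, other depth minimums and distances, limma 3.58.1 on log2 ratios of the deposited counts with 2 reads added, the replicate number as a block, sex as a covariate and leaving out each adenoma. Promoters came from a RefSeq table of 32851 windows (GRCm38.p6), and a match needed 3 more shared distances than the next best place. No coordinates were converted, and sites outside promoter windows were assigned to no gene.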

Additional observations from a re-analysis of the deposited data

Results flagged for a closer look

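Sites below the depth minimum were used in no comparison. At the 98 of them within 500 bp of a chosen site, reads summed over sites gave a level of 16.9% ± 0.84 (SD, n = 3) in the Tet1 null adenomas, from 15.95% to 17.58%. Controls had 11.95% ± 1.72 with a highest value of 13.9%, Tdg heterozygous adenomas 11.94% ± 0.75 and double heterozygous adenomas 12.81% ± 1.45 with a highest value of 14.46%, so the Tet1 null adenomas did not overlap the others. Over 500 and up to 2000 bp away (205 sites) the Tet1 null level was 23.3% (22.37% to 24.98%) and the other genotypes had means of 21.4% to 21.95%. The adenomas overlapped there, with a double heterozygous adenoma at 24.35%. Beyond 2000 bp (61822 sites) the Tet1 null level was 37.95%, against 36.23% in controls, 37.58% with Tdg heterozygosity and 42.19% with both genes heterozygous. The double heterozygous adenomas spread from 34.53% to 48.55% there, with the highest value from the shallowest library. These sites come from the adenomas that chose the 409, and the levels are given with no test.

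On the X chromosome, which the rule leaves out, 1 of the 181 sites that passed the depth minimum of 50 reads was highest in every Tet1 null adenoma, and none was highest in every control adenoma.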

How the results depend on the processing

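The number of sites rested on a gap of any size and on which adenomas had to be passed: it was 199 with a gap of at least 1 point, and leaving out each adenoma in turn gave 421 to 1031, with 1031 without Tet1 null 1 and 623 without Tet1 null 3. Any such omission asks less of a site, so the count can only rise. The share with another chosen site nearby was 6.36% within 250 bp, 33.0% within 1000 bp and 33.7% within 2000 bp, and 26.97% to 31.15% within 500 bp when each adenoma was left out. For double heterozygous against the mean of control and Tdg heterozygous, sites called were 0 with limma, 0 at a minimum of 100 reads, 2 in a fit of the 9 adenomas alone, 7 with sex as a covariate and 1 to 9 when each adenoma was left out. The count was 9 without double heterozygous 1, 7 without control 2 or double heterozygous 2, 4 without Tdg heterozygous 2 or double heterozygous 3, 3 without Tdg heterozygous 3 and 2 without Tet1 null 1. For Tdg heterozygous against control they were 0 with limma, 4 at 100 reads and 0 to 8 when each adenoma was left out. That count was 0 without Tdg heterozygous 1, 3 without Tdg heterozygous 3, Tet1 null 3 or double heterozygous 3 and 4 without control 1. With the replicate number as a block the 2 comparisons called 1 and 2 sites. Samples with the same number correlated from -0.146 to 0.406 in their deviations (mean 0.079), with 7 of 18 pairs over 0.1. Samples with different numbers correlated from -0.438 to 0.487 (mean -0.04), with 6 of 36 pairs over 0.1. The number was not taken as a pairing in the main fit, and these values do not exclude one. The cause of these changes was not tested. The shallowest library, with a median of 111 reads at candidates, limits what a gap under 1 point can show.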
